A study of Rattus norvegicus with 6 samples.

Results

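The nectins, the Cadm proteins and the Mpzl proteins are cell adhesion molecules of the immunoglobulin superfamily, and 8 of their genes were followed in cultured rat testis cells of 2 ages: Mpzl1, Mpzl2, Mpzl3, Nectin1, Nectin2, Nectin3, Cadm1 and Cadm3. They are 8 of the 14506 genes that could be compared. The genes were chosen by their family and with their age differences in these data known, so those differences are given as a description, without a test. Each gene had 1 probe set with a single gene symbol, and no filter on low signal was applied. Of their relatives, Nectin4, Cadm4 and Pvr were measured as well and are given with the partner genes, while Cadm2 was not analysed here.

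The cultures came from the testes of 21-day-old rats, which the labels place after the phase in which Sertoli cells proliferate, and from those of 9-day-old rats, which the labels place within it. Both were labelled as Sertoli cells, kept in a medium that held 10% fetal bovine serum, and hybridised as total RNA to 3 Affymetrix arrays per age. GEO files the series under genome binding by array, but its labels speak of total RNA, and the values are read here as expression. The labels name no strain and leave unstated if each replicate was its own animal or culture, so every SD and SE below covers only the spread between these arrays, which may be technical. Values are log2 signals after RMA, the background correction, normalization and probe summary of such arrays. A difference of 1 is therefore a factor of 2, and levels of different genes are not compared. In RNA from a mixed culture, fewer cells of a type and less RNA per cell cannot be told apart.

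Nectins hold neighbouring cells together by binding to nectins on the next cell, either of the same kind or of another, and inside the cell they bind afadin, which links them to actin. In the testis of mice, NECTIN2 on Sertoli cells binds NECTIN3 on spermatids at the junctions that hold the developing germ cells. Cadm proteins, also called nectin-like or SynCAM proteins, work in a similar way, and CADM1 is known from germ cells of the mouse testis, where its loss leads to male infertility. The Mpzl proteins are single-pass membrane proteins with an immunoglobulin-type domain outside the cell, and they act in adhesion and in signalling from the membrane.

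In markers of smooth muscle-type peritubular cells the arrays numbered 3 stood apart from the others at both ages. In those of Sertoli cells only 21-day-old replicate 3 did. Of 11 measured markers of Sertoli cells, the transcription factor gene Wt1 lay between 6.94 and 7.44 on the 6 arrays, and Amh, Fshr and Cldn11 lay between 2.43 and 3.71, below the median of each array. Without detection calls it is unknown whether such low signals exceeded background, and Sox9 was not analysed here. The mean of these 11 genes was 4.93, 5.26 and 5.99 in 21-day-old replicates 1, 2 and 3, against 4.53, 4.79 and 4.79 in 9-day-old replicates 1, 2 and 3. Of the 11 genes, 10 were highest in 21-day-old replicate 3. Transferrin (Tf) had the widest age difference of the 11, at 3.59, followed by Shbg (1.16) and Inha (1.03), while Gata4 differed by -0.19. Inha overlapped between the ages, and Shbg was at 3.22 in 21-day-old replicate 1, against 3.18 in 9-day-old replicate 1. Without Tf, a setting added after seeing the data, the mean was 4.59, 4.91 and 5.48 in 21-day-old replicates 1, 2 and 3, against 4.48, 4.65 and 4.64 in 9-day-old replicates 1, 2 and 3, and the ages overlapped. Markers of smooth muscle-type peritubular cells averaged 9.84 in 21-day-old replicate 3 and 10.1 in 9-day-old replicate 3, against 7.89 to 8.75 on the other 4 arrays.

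Mpzl2 and Cadm1 had the 2 widest age differences of the family, and both were higher at 21 days. Mpzl2 differed by 2.34 ± 0.69 and Cadm1 by 1.16 ± 0.58 (log2, SE), or 5.08-fold and 2.23-fold. The other 6 genes differed by between -0.22 and 0.17. With limma across all genes, 0 of the 8 passed an adjusted p under 0.05, which was also the case for 0% of all 14506 genes. Without adjustment 431 of all genes had a p under 0.05. With the replicate number as a block again 0 of the 8 and 0% of all genes passed, with 1122 of all genes under 0.05 before adjustment.

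**Figure D1:**
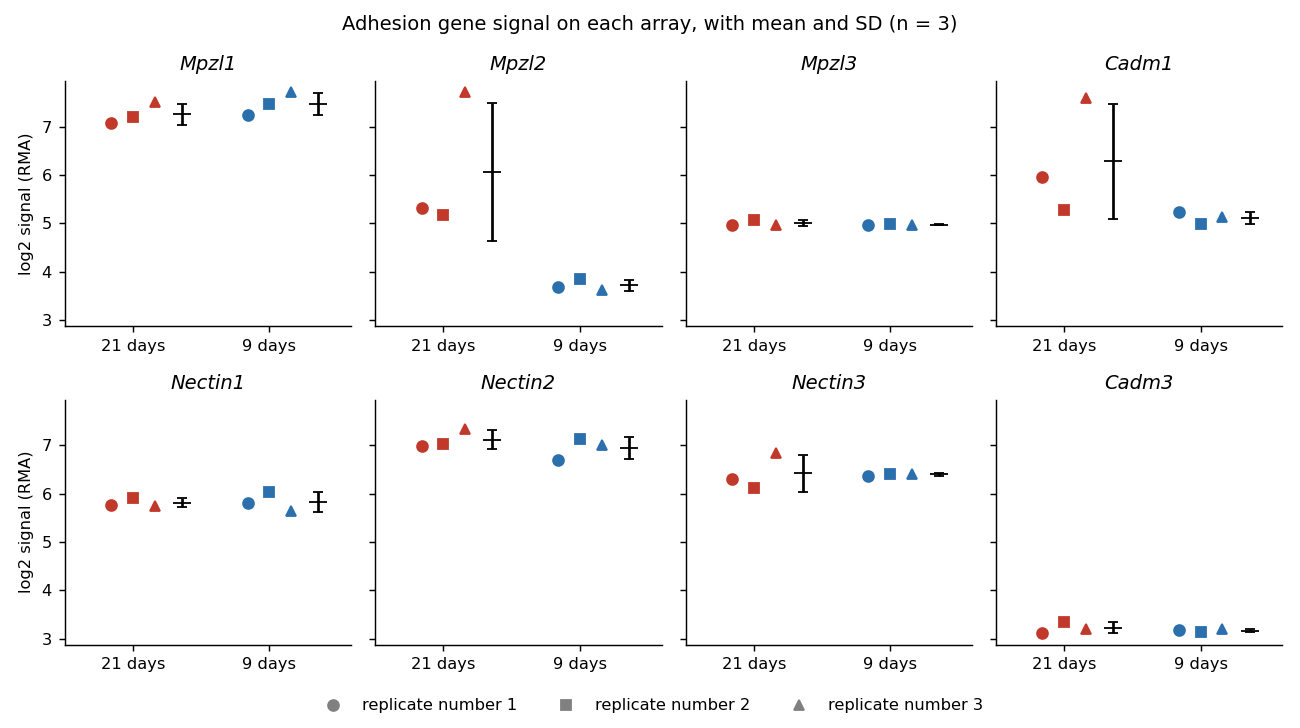
Log2 signal of each gene (vertical axis) on each array, with 21 days left of 9 days, the shape giving the replicate number and the black bar the mean with its SD (n = 3). Mpzl2 and Cadm1 lie higher on every 21-day-old array than on any 9-day-old one and are highest in 21-day-old replicate 3, at 7.72 and 7.60.

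Mpzl2 encodes epithelial V-like antigen, an adhesion protein of epithelia that was first described in the developing thymus. Its signal was 5.31, 5.17 and 7.72 in 21-day-old replicates 1, 2 and 3, against 3.70, 3.84 and 3.62 in 9-day-old replicates 1, 2 and 3. The groups did not overlap, and the lowest 21-day-old value lay 1.32 above the highest 9-day-old one. The mean was 6.06 ± 1.43 at 21 days and 3.72 ± 0.11 at 9 days (SD, n = 3 each). The younger values lay close to the medians of the arrays, which ran from 3.78 to 3.87, so the 9-day-old signal was a low one, and whether it exceeded background is unknown. Ranked by the difference from highest to lowest, Mpzl2 was number 3 of all 14506 genes.

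One array carried much of the size of this difference but not its direction. Within arrays of the same number Mpzl2 differed by 1.62, 1.32 and 4.10 for the numbers 1, 2 and 3. Without 21-day-old replicate 3 the difference was 1.52, and without both arrays numbered 3 it was 1.47 ± 0.10 (SE), so the gene stayed well over 2-fold higher at 21 days on the remaining arrays. The Sertoli cell marker mean given above was likewise highest in 21-day-old replicate 3, with and without Tf, and its part in the Mpzl2 values was not tested. The mean of 8 epithelial markers was 3.41, 3.46 and 3.85 in 21-day-old replicates 1, 2 and 3, against 3.56, 3.50 and 3.69 in 9-day-old replicates 1, 2 and 3. The ages overlapped, and the list too was highest in 21-day-old replicate 3, as were 4 of its 8 genes. Krt18, a keratin of simple epithelia, was at 4.11, 4.54 and 5.82 in 21-day-old replicates 1, 2 and 3, against 5.10, 5.003 and 5.32 in 9-day-old replicates 1, 2 and 3. Krt7 lay between 4.74 and 5.48 on the 6 arrays, and Epcam between 2.20 and 2.27, below the lower quartile of each array, which ran from 2.61 to 2.65. The part of epithelial cells in the Mpzl2 values was not tested.

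Mpzl3, which lies next to Mpzl2 among the RefSeq genes of the GRCr8 assembly, showed no comparable difference. It encodes a membrane protein that is known in mice from the skin and sebaceous gland. Its signal was 4.98, 5.08 and 4.98 in 21-day-old replicates 1, 2 and 3, against 4.98, 4.98 and 4.98 in 9-day-old replicates 1, 2 and 3. The age difference was 0.032 ± 0.061 (log2, SE). Its value was identical to every deposited decimal on 4 of the 6 arrays, which held for at least 4 arrays in 6.13% of all genes and for at least 2 arrays in 37.8%. Such a probe set did not register differences between those arrays, and the flat values of Mpzl3 say little about its transcript.

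Mpzl1, also called PZR, carries a cytoplasmic tail that recruits the phosphatase SHP-2, encoded by Ptpn11, and acts in cell adhesion and migration. Its signal was 7.07, 7.20 and 7.50 in 21-day-old replicates 1, 2 and 3, against 7.25, 7.47 and 7.71 in 9-day-old replicates 1, 2 and 3. The groups overlapped, and the means were 7.26 ± 0.22 at 21 days and 7.48 ± 0.23 at 9 days (SD, n = 3 each), a difference of -0.22 ± 0.16 (SE). Arrays of the same number nevertheless differed by much the same amount each time, -0.18, -0.27 and -0.21, with an SD of 0.048 over the 3 pairs. Mpzl1 was the only one of the 8 genes that was lower at 21 days in all 3 pairs, as were 14.4% of all genes. Mpzl2 and Cadm1 were higher in all 3, as were 10.7% of all genes, and the other 5 were mixed or had a pair without any difference.

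**Figure D2:**
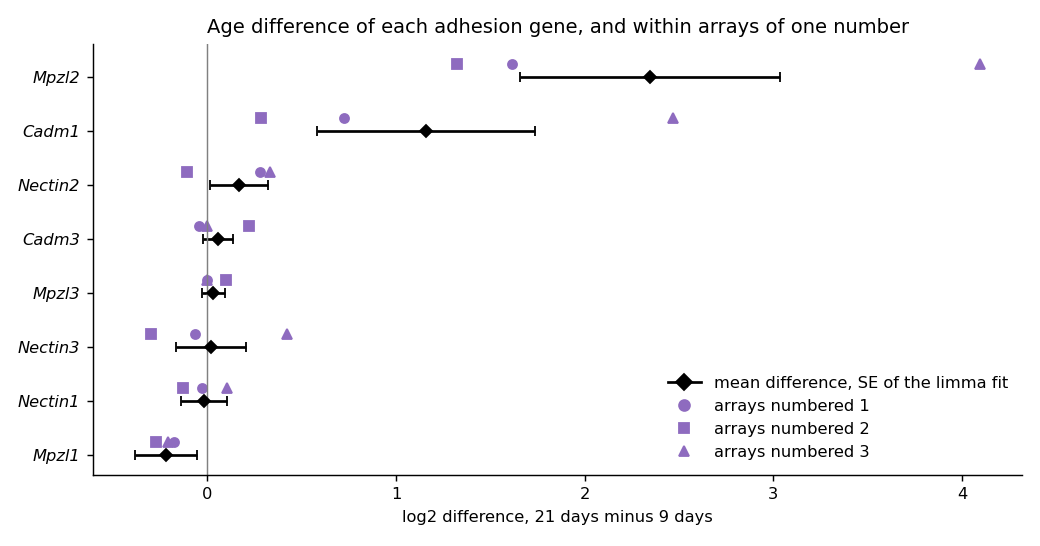
Log2 difference, 21 days minus 9 days (horizontal axis), of each gene: the black diamond is the mean difference with the SE of the limma fit, and the purple shapes are the differences between arrays of the same replicate number. For Mpzl2 and Cadm1 the arrays numbered 3 lie far to the right, at 4.10 and 2.47, whereas the 3 pairs of Mpzl1 lie between -0.27 and -0.18.

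Among Nectin1, Nectin2 and Nectin3, Nectin2 had the widest age difference, within the spread between arrays. It encodes the nectin that Sertoli cells are known to carry. Its signal was 6.98, 7.03 and 7.34 in 21-day-old replicates 1, 2 and 3, against 6.70, 7.13 and 7.01 in 9-day-old replicates 1, 2 and 3. The values overlapped, with means of 7.12 ± 0.20 at 21 days and 6.95 ± 0.22 at 9 days (SD, n = 3 each). The difference was 0.17 ± 0.15 (SE), and it was 0.044 without 9-day-old replicate 1.

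Nectin3, whose protein binds NECTIN2 across the junction and is known from spermatids, differed more among the older arrays than among the younger ones. Its signal was 6.30, 6.11 and 6.84 in 21-day-old replicates 1, 2 and 3, against 6.37, 6.41 and 6.41 in 9-day-old replicates 1, 2 and 3. All 3 younger values lay inside the range of the older ones. The means were 6.42 ± 0.37 at 21 days and 6.40 ± 0.03 at 9 days (SD, n = 3 each), a difference of 0.019 ± 0.19 (SE). The direction rested on 21-day-old replicate 3, since the difference was -0.19 without it and -0.18 without both arrays numbered 3, and it was -0.00055 after median centring.

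Nectin1, a widely expressed nectin of epithelia and neurons that herpes simplex viruses use for entry, had values at 21 days that all lay within the range seen at 9 days. The signal was 5.77, 5.91 and 5.74 in 21-day-old replicates 1, 2 and 3, against 5.80, 6.04 and 5.63 in 9-day-old replicates 1, 2 and 3. The difference was -0.017 ± 0.12 (log2, SE). Its sign turned without 9-day-old replicate 2 (0.092), 21-day-old replicate 1 (0.00067) or 21-day-old replicate 3 (0.018), and after quantile normalization (0.016).

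Cadm1 was higher in the cultures from older rats, with most of the size in a single array. Its signal was 5.97, 5.28 and 7.60 in 21-day-old replicates 1, 2 and 3, against 5.24, 4.997 and 5.13 in 9-day-old replicates 1, 2 and 3. The groups did not overlap, but only by 0.035 between 21-day-old replicate 2 and 9-day-old replicate 1. The means were 6.28 ± 1.19 at 21 days and 5.12 ± 0.12 at 9 days (SD, n = 3 each). Arrays of the same number differed by 0.73, 0.28 and 2.47 for the numbers 1, 2 and 3. Without 21-day-old replicate 3 the difference was 0.50, and without both arrays numbered 3 it was 0.50 ± 0.28 (SE). By the difference Cadm1 was number 41 of all genes.

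Germ cell markers were measured beside Cadm1, since germ cells are known to express it. The mean of 8 such genes was 3.59, 3.61 and 3.85 in 21-day-old replicates 1, 2 and 3, and 3.67, 3.69 and 3.69 in 9-day-old replicates 1, 2 and 3. The list was highest in 21-day-old replicate 3, as were 6 of its 8 genes. Uchl1, a marker of spermatogonia that neurons also express, lay between 7.68 and 8.43. Piwil1, which encodes a piRNA-binding protein, lay between 3.52 and 3.91. Gfra1, a receptor gene of early spermatogonia, lay between 3.66 and 4.43 and was lowest in 21-day-old replicate 3. Zbtb16, also on the list, was at 3.34, 3.27 and 3.37 in 21-day-old replicates 1, 2 and 3. It was higher in 9-day-old replicates 1, 2 and 3, at 3.41, 3.58 and 3.65, without overlap. The defining germ cell gene Ddx4, an RNA helicase of the whole lineage, lay between 2.41 and 2.53 on all 6 arrays, below the lower quartiles of 2.61 to 2.65. Dazl, which encodes an RNA-binding protein of germ cells, was at 2.11, 2.29 and 3.06 in 21-day-old replicates 1, 2 and 3, and at 2.04, 2.46 and 2.29 in 9-day-old replicates 1, 2 and 3. The part of germ cells in the Cadm1 values was not tested.

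Cadm3, known as a brain-enriched member of the family that binds the other Cadm proteins, had low signal at both ages. It was at 3.13, 3.36 and 3.20 in 21-day-old replicates 1, 2 and 3, against 3.17, 3.13 and 3.20 in 9-day-old replicates 1, 2 and 3, all below the medians of the arrays. The difference was 0.058 ± 0.079 (log2, SE), and it was -0.0062 without 21-day-old replicate 2. The 2 arrays numbered 3 held the same value to every deposited decimal. With signal this low, the small size of the difference leaves the expression at the 2 ages unsettled.

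Counted together, 2 of the 8 genes, Mpzl2 and Cadm1, were higher at 21 days without overlap between the ages, where the share of all genes was 2.74%. None was lower without overlap, against 2.98% of all genes. The same 2 were at least 2-fold higher at 21 days. At any p, 0.352% of all genes were that much higher and 0.0758% that much lower. Since the genes were picked with this contrast known, nothing is read from these counts. The median of the 8 differences was 0.045, beside -0.0093 for all genes.

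The genes whose pattern over the 6 arrays came nearest to Mpzl2 and Cadm1 were sought by a fixed rule, which took any of the 8 genes with a range of at least 1. Each gene was centred on its own mean, and likeness was the root mean square difference from the adhesion gene over the 6 arrays. Nearest to Mpzl2 were Tmem184a, a membrane protein gene, at 0.15, Testin, which encodes a secreted product of Sertoli cells, at 0.19, and the reductase gene Akr7a3 at 0.33, where the median gene was at 1.44. Nearest to Cadm1 were Gca, which encodes the calcium-binding protein grancalcin, at 0.056, the secreted glycoprotein gene Creg1 at 0.16 and the tight junction gene Ocln at 0.24, with a median of 0.91. All 6 genes were highest in 21-day-old replicate 3, which follows from the rule, since Mpzl2 and Cadm1 were highest there. Gca was at 4.40, 3.72 and 6.19 in 21-day-old replicates 1, 2 and 3, against 3.72, 3.51 and 3.68 in 9-day-old replicates 1, 2 and 3. Mpzl2 and Cadm1 lay 0.65 apart by the same measure.

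**Figure D3:**
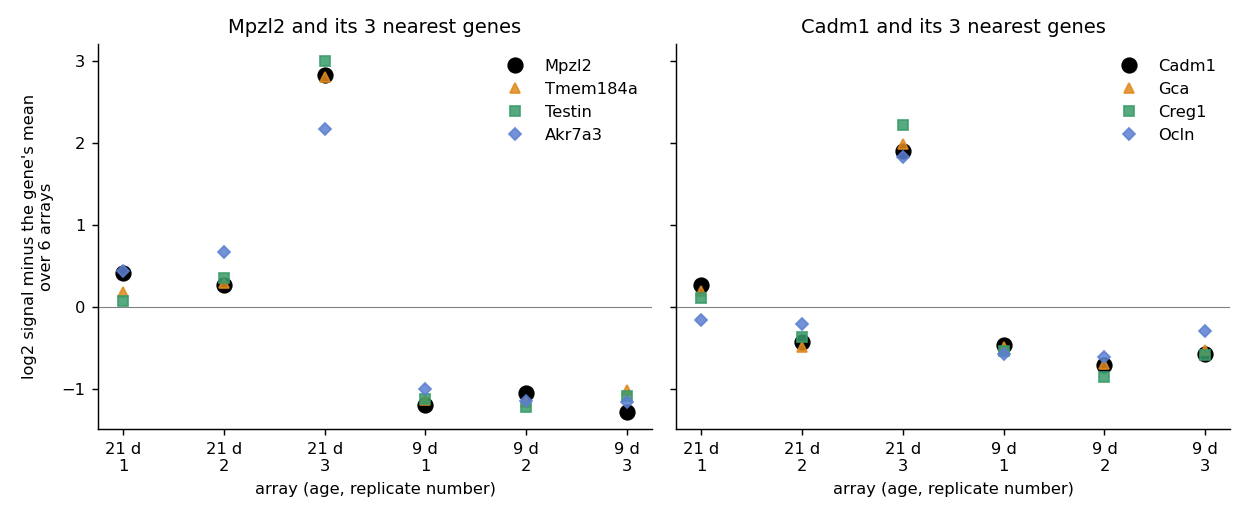
Log2 signal minus the mean of each gene over the 6 arrays (vertical axis) on each array (horizontal axis, 21 days left of 9 days) for Mpzl2 and Cadm1 in black and their 3 nearest genes in colour. In both panels 21-day-old replicate 3 lies above all other arrays, and Gca follows Cadm1 with a root mean square difference of 0.056.

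The partners of these proteins gave a wider view, through 7 lists with 64 genes, of which 54 were measured. With limma 0 of the 54 passed, also with the replicate number as a block, and each had an adjusted p of 1.00 without the block. Of the 54, 21 were higher and 33 lower at 21 days by any amount, with a median of -0.044, beside -0.0093 for all genes. Over all genes, 6752 were higher and 7754 lower by any amount, and the counts of each list below are to be read beside this split. Without overlap between the ages, 2 were higher (2.74% of all genes) and 4 were lower (2.98% of all genes).

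The 3 measured relatives differed by at most 0.20 in size. Nectin4, a nectin of skin and placenta, was at 3.43, 3.50 and 3.66 in 21-day-old replicates 1, 2 and 3, against 3.48, 3.08 and 3.48 in 9-day-old replicates 1, 2 and 3, a difference of 0.19 ± 0.13 (log2, SE) with overlap. Cadm4, a Cadm protein known for the contacts between Schwann cells and axons, was at 6.08, 6.13 and 5.92 in 21-day-old replicates 1, 2 and 3, against 5.99, 5.62 and 5.92 in 9-day-old replicates 1, 2 and 3. That was a difference of 0.20 ± 0.12 (log2, SE), or 0.089 without 9-day-old replicate 2. Pvr, the nectin-like receptor of poliovirus in humans, which also binds NECTIN3, differed by -0.20 ± 0.27, with values of 7.68 to 8.38 at 21 days and 7.68 to 8.37 at 9 days. Of the immune cell receptors that bind nectins, Pvr or CADM1, Cd226 lay between 2.17 and 2.18 on all arrays and Crtam between 2.61 and 2.84. Both, like Nectin4, lay below the median of each array, so whether their signals exceeded background is unknown. Tigit and Cd96 were not analysed here.

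Genes for the proteins that anchor nectins under the membrane lay close to 0 in their differences. Of 10 measured genes, 2 had higher and 8 had lower means at 21 days. Their median was -0.044, and each overlapped between the ages. Afdn, which encodes afadin itself, was at 6.46, 5.79 and 6.91 in 21-day-old replicates 1, 2 and 3, against 6.45, 6.29 and 6.83 in 9-day-old replicates 1, 2 and 3. Its difference of -0.14 ± 0.31 (log2, SE) turned to 0.16 without 21-day-old replicate 2. The scaffold gene Iqgap1, whose protein binds actin and Rac1, differed by -0.19 ± 0.21, or 0.0031 without 9-day-old replicate 3. Rapgef1 was not analysed here.

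Of 8 measured scaffold genes of the Cadm proteins, 2 had higher and 6 had lower means at 21 days (median -0.081). Cask, whose protein binds the tail of CADM1 at synapses, was at 6.88, 6.94 and 6.81 in 21-day-old replicates 1, 2 and 3, against 7.14, 7.28 and 7.04 in 9-day-old replicates 1, 2 and 3. The groups did not overlap and Cask was lower in each pair, by a mean of -0.28 ± 0.08 (log2, SE). Of all genes, 2.98% were lower at 21 days without overlap and 14.4% were lower in all 3 pairs. Dlg1, another scaffold of membrane proteins, also showed no overlap, at -0.14 ± 0.09, or -0.062 without 21-day-old replicate 2. Epb41l2 was not analysed here.

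For Mpzl1 the 6 signalling partners were all measured, 2 higher and 4 lower with a median of -0.027. Ptpn11, which encodes the phosphatase that Mpzl1 recruits, lay between 8.12 and 8.18 on all arrays. Cttn, whose product cortactin shapes the actin network, differed by 0.12 ± 0.08 (log2, SE) and the kinase gene Src by -0.060 ± 0.12, which turned to 0.054 without 21-day-old replicate 1.

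Classical adherens junction genes, which nectins help to assemble into junctions, had 3 members higher and 4 lower of 7 measured, with a median of -0.064. Jup, which encodes plakoglobin, was at 5.95, 6.36 and 8.05 in 21-day-old replicates 1, 2 and 3, against 5.49, 5.75 and 6.21 in 9-day-old replicates 1, 2 and 3. The groups overlapped, and the difference of 0.97 ± 0.56 (log2, SE) was 0.34 without 21-day-old replicate 3, the array that was also highest for Mpzl2 and Cadm1. Ctnnb1, which encodes beta-catenin, was at 9.34, 9.39 and 9.18 in 21-day-old replicates 1, 2 and 3, against 9.61, 9.73 and 9.45 in 9-day-old replicates 1, 2 and 3. It did not overlap, with a difference of -0.29 ± 0.10. Cdh3 was not analysed here.

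Of 18 other measured adhesion genes of the immunoglobulin type, 9 had higher and 9 had lower means at 21 days (median 0.017). F11r, which encodes junctional adhesion molecule A, was at 5.43, 4.83 and 6.02 in 21-day-old replicates 1, 2 and 3, against 3.88, 3.50 and 4.09 in 9-day-old replicates 1, 2 and 3. It differed by 1.61 ± 0.32 (log2, SE), and unlike Mpzl2 it varied little between pairs, with 1.55, 1.33 and 1.93 for the numbers 1, 2 and 3. As for Mpzl2, the younger F11r values lay near the array medians of 3.78 to 3.87, and whether they exceeded background is unknown. Emb, which encodes embigin, a partner of lactate carriers, was at 7.18, 5.97 and 5.28 in 21-day-old replicates 1, 2 and 3, against 7.76, 7.10 and 6.72 in 9-day-old replicates 1, 2 and 3. The groups overlapped, and the difference was -1.05 ± 0.53, or -0.61 if 21-day-old replicate 3 was left out. Vcam1 (0.56 ± 0.14) and Clmp (-0.40 ± 0.12) had no overlap either and are named after their values had been seen. Gpa33 was not analysed here.

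**Figure D4:**
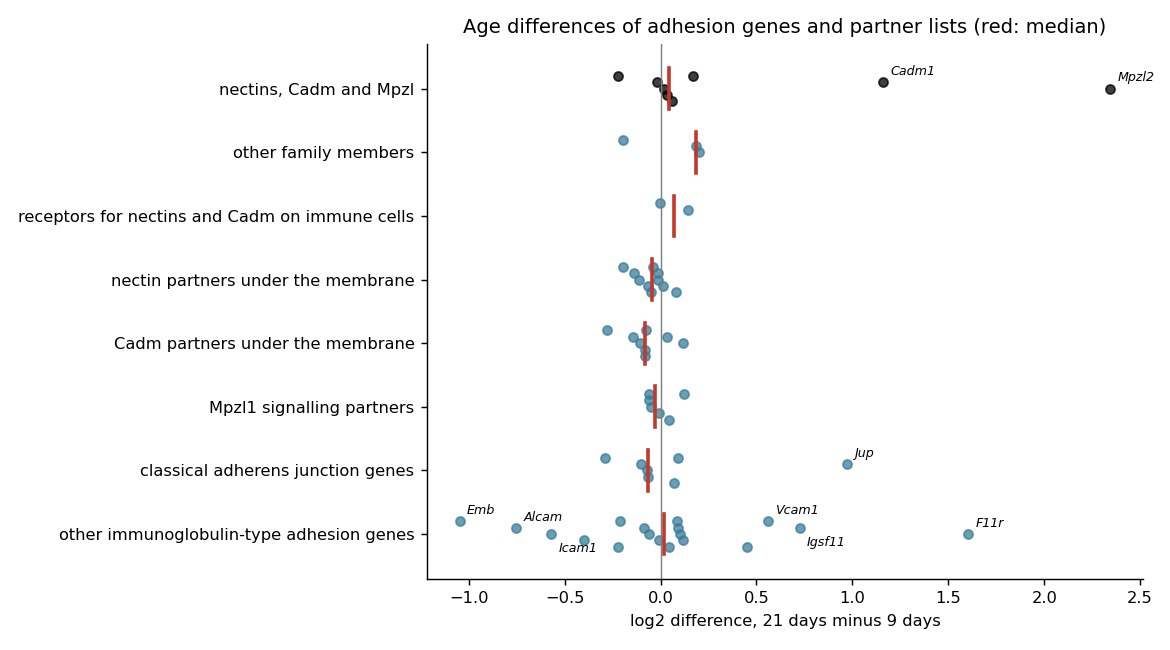
Log2 difference, 21 days minus 9 days (horizontal axis), of the nectin, Cadm and Mpzl genes in black and of the 54 partner genes in blue, 1 point per gene, with the median of each list as a red bar. The medians lie between -0.081 and 0.19, and Mpzl2, Cadm1 and F11r lie farthest to the right.

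**Figure D5:**
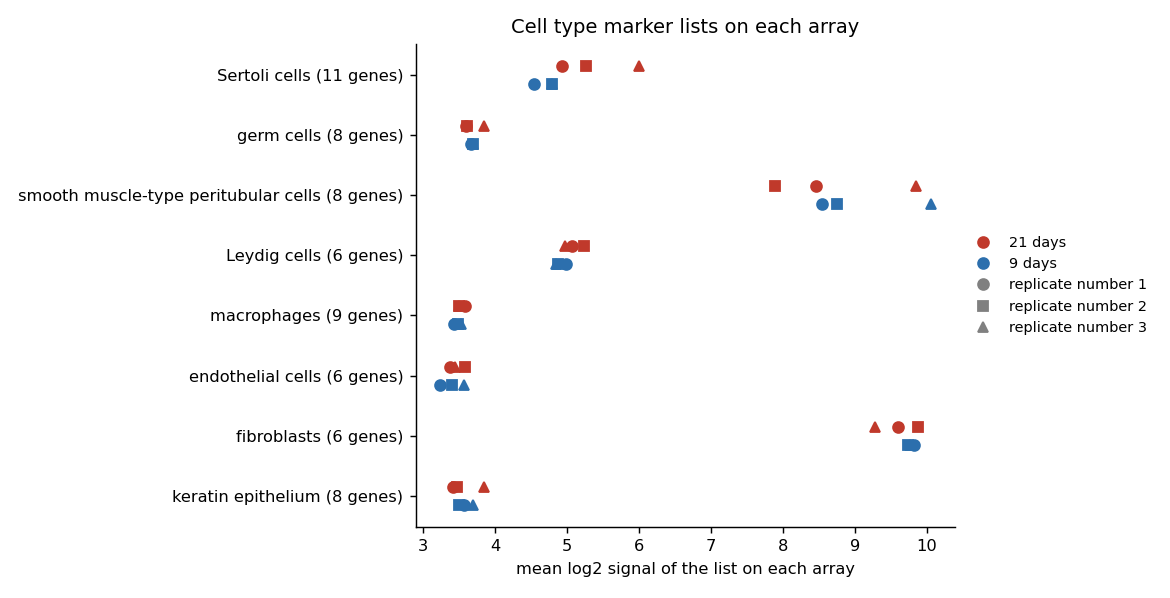
Mean log2 signal of each cell type marker list (horizontal axis) on each array, 21 days in red above 9 days in blue, with the shape giving the replicate number. The Sertoli cell list is highest in 21-day-old replicate 3 (5.99), and the smooth muscle list is highest in the arrays numbered 3 of both ages (9.84 and 10.1).

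Of the remaining lists, Leydig cell markers averaged 4.97 to 5.23 at 21 days and 4.85 to 4.99 at 9 days, macrophage markers 3.49 to 3.58 at 21 days and 3.42 to 3.52 at 9 days. The Leydig cell mean joins unlike signals. Star lay between 10.8 and 11.3, whereas Cyp11a1, Cyp17a1 and Lhcgr lay between 2.27 and 2.87, below the median of each array. Hsd11b1 had the widest age difference of that list, at 0.98. Endothelial markers averaged 3.37 to 3.58 at 21 days and 3.24 to 3.57 at 9 days. Fibroblast markers averaged 9.60, 9.88 and 9.28 in 21-day-old replicates 1, 2 and 3, against 9.83, 9.74 and 9.76 in 9-day-old replicates 1, 2 and 3. The list mean was thus lowest in the array where Mpzl2 and Cadm1 were highest. Pdgfra, Dcn and Lum were lowest in that array, at 7.70, 9.80 and 4.96. Col1a1, Col1a2 and Col3a1, at 11.8, 11.7 and 9.72 there, were not. The part of these cell types in the values of the adhesion genes was not tested.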

How the data were processed

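The data were log2 signals of 29214 probe sets on 6 arrays, which the authors had computed by RMA, according to the submitters' processing notes. The RMA version is not given in the sources read here. No detection call, slide or scan date entered the work, so batches could not be examined. Genes were named through the platform annotation, which gives 1 gene for 15310 probe sets and several for 323. The highest mean probe set per gene was kept, leaving 14506 genes. Coordinates are left out because no build is stated for the array.

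The ages were compared across all genes as 21 days minus 9 days in limma 3.58.1 (R 4.3.3, lmFit, eBayes), with Benjamini-Hochberg adjustment and a threshold of 0.05. The code was first run on simulated data with known changes. Those data had the same spread for every gene and no link between arrays of the same number. They therefore do not show how the fit performs on these arrays. The members and all lists were chosen with earlier results of these data known. Named were the 8 adhesion genes, the called genes of each partner list or, with none called, its 2 widest differences, and the 3 genes nearest to each adhesion gene with a range of at least 1. Arrays of the same number, as the titles give it, deviated together from their age means. The correlations across genes were 0.439, 0.549 and 0.673, each above the limit of 0.1. Differences within each number are therefore given as pairs. The reported fit and its SEs left the number out, since the labels state no pairing, and it entered a fit only as the replicate block. Precision is limited by the number of arrays (median SE 0.112). Alternatives were the replicate block, a filter, other scalings, the mean over probe sets, another prior and leaving out arrays. Figures were drawn with matplotlib 3.10.9.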

Additional observations from a re-analysis of the deposited data

How the results depend on the processing

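The count of genes called between the ages was 0 under the replicate block, the filter to the 7253 genes of highest mean, both scalings, the mean over probe sets, the trended robust prior and each left-out array, with lowest adjusted p from 0.132 to 1.00 in limma, against 0.685 in the reported fit, and 304 to 1122 genes at an unadjusted p under 0.05. It was 0 as well when the 2 arrays numbered 3 were dropped, a setting added after seeing the data. The replicate block kept each difference and changed no call; its SE was 0.068 for Mpzl1 and 0.57 for Mpzl2. Under both scalings no difference of the 8 genes moved by more than the spread between replicates. Leaving out 1 array cannot move a difference beyond that spread by construction, so nothing is read from that comparison. The differences of Mpzl3, Nectin1, Nectin3 and Cadm3, all under 0.06 in size, turned sign under at least 1 alternative (Mpzl3 at -0.0021 without 21-day-old replicate 2). With arrays left out in turn Mpzl2 ran from 1.52 to 2.79, Cadm1 from 0.50 to 1.66, Mpzl1 from -0.34 to -0.10 and Nectin2 from 0.044 to 0.26. Genes without overlap numbered 830 as reported, 1168 after median centring, 1224 after quantile normalization, 838 with the mean over probe sets, 405 after the filter, which tests fewer genes, and 1766 to 2375 with an array left out, which makes overlap rarer by construction. Genes differing at least 2-fold numbered 62, or 39 after the filter. Signal over background could not be judged, which among the 8 genes limits Cadm3 and the younger values of Mpzl2 most.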

Other observations

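Some adhesion genes of the list of other immunoglobulin-type genes were highest on the arrays numbered 3 at both ages. The pattern was not particular to that list, since Pvr, Afdn, Tjp1, Ctnna1, Ctnnd1 and Vcl of other lists had it too. Its share over all genes was not counted. All these genes are named after their values had been seen. Mcam, an adhesion molecule of smooth muscle and vessel walls, was at 5.20, 5.69 and 8.17 in 21-day-old replicates 1, 2 and 3, against 5.28, 5.99 and 7.50 in 9-day-old replicates 1, 2 and 3. Its difference between the ages was 0.093 ± 0.94 (log2, SE), while both arrays numbered 3 lay above all the others. Alcam, which binds its like and CD6, was highest on the same 2 arrays, at 8.06 (21 days) and 8.20 (9 days), against 6.66 and 5.92 on the other 21-day-old arrays and 7.39 and 7.30 on the other 9-day-old ones. It was also lower at 21 days in each pair, by -0.73, -1.38 and -0.14 for the numbers 1, 2 and 3, with an age difference of -0.75 ± 0.57 (log2, SE). Ncam1, the neural cell adhesion molecule, was at 9.19 and 9.52 on these arrays, against 8.26 and 8.37 (21 days) and 8.70 and 8.24 (9 days) on the rest, with an age difference of -0.21 ± 0.40. Des, the muscle intermediate filament gene desmin, was at 10.5 and 9.93 on the arrays numbered 3, against 7.31 and 7.12 (21 days) and 7.84 and 8.85 (9 days). Igsf11, an adhesion gene known from Sertoli and germ cells, was at 4.67, 5.21 and 6.16 in 21-day-old replicates 1, 2 and 3, against 4.69, 4.51 and 4.66 in 9-day-old replicates 1, 2 and 3. Its 21-day-old replicates 2 and 3 lay above all the 9-day-old values, and the arrays numbered 1 differed by -0.025.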
